A study of Homo sapiens with 12 samples.

Results

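ZNF138, ZNF267, ZNF678 and ZNF681 encode KRAB zinc finger proteins. In 22Rv1 cells they had the largest rises in libraries 2 and 3 given siRNA against ETS1, among ZNF genes at or above a set level. They are 4 of the 61860 genes in the count tables. They were chosen from the log2 fold changes of ETS1 siRNA libraries 2 and 3 over 3 controls, among genes with a ZNF symbol whose mean level reached 10 CPM (counts per 1e+06 counts). The values of that contrast are therefore given as a description, without a test. 22Rv1 is a human prostate cancer line grown from a xenograft tumour. The 4 groups of 3 libraries each were 22Rv1 cells given ETS1 siRNA, the control cells of the ETS1 experiment, 22Rv1 cells given ZNF783 siRNA, and the control cells of the ZNF783 experiment. ETS1 is a transcription factor of the ETS family, and ZNF783 is itself a zinc finger gene. The siRNA sequences, the control oligonucleotide and the time of harvest are not given in the sources used here. Nothing in the labels tells whether the 3 libraries of a group came from separate cultures. The p-values therefore cover the spread between libraries, which may be technical only.

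KRAB zinc finger proteins are the largest family of transcription factors in mammals. Their tandem zinc fingers read DNA, often within transposable elements, and the KRAB domain recruits TRIM28, which brings in the histone methyltransferase SETDB1 and heterochromatin proteins to silence the bound locus. Many of these genes arose by duplication and stand in clusters, above all on chromosome 19, which makes their sequences alike.

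The 4 genes lie on 4 chromosomes (GRCh38, GENCODE 29). ZNF138 (ENSG00000197008) is at chr7:64794388-64833681 on the plus strand, and ZNF267 (ENSG00000185947) is at chr16:31873758-31917357 on the plus strand. ZNF678 (ENSG00000181450) is at chr1:227563543-227677443 on the plus strand, and ZNF681 (ENSG00000196172) is at chr19:23739195-23758891 on the minus strand. None of the 4 shares exon bases with another annotated gene. Few of their 50-base transcript words occurred in other genes, namely 0.713% for ZNF138, 0.0467% for ZNF267, 0.592% for ZNF678 and 3.08% for ZNF681. Their coding sequences of 957, 2229, 1575 and 1935 bases (ZNF138, ZNF267, ZNF678 and ZNF681) held 2, 14, 14 and 11 matches to the C2H2 zinc finger pattern, so ZNF138 is the short member. The KRAB domain itself was not looked for in these sequences. ZNF138 and ZNF681 were the most alike pair, with 82.5% identical bases over the shorter coding sequence, and ZNF138 and ZNF678 the least, with 62.6%.

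The promoters of the 4 genes are shown because they share words at like distances from the start, although the genes lie on different chromosomes. Each line gives the 150 bases before the RefSeq transcription start (GRCh38.p14), 5′ to 3′ on the strand of the gene, at chr7:64794278-64794427 (plus) for ZNF138, chr16:31873657-31873806 (plus) for ZNF267, chr1:227563406-227563555 (plus) for ZNF678 and chr19:23758892-23759041 (minus) for ZNF681. Capitals mark the CCAAT word and the CCGGAA word, the core bound by ETS factors, on either strand (ATTGG and TTCCGG are their reverse complements).
ZNF138: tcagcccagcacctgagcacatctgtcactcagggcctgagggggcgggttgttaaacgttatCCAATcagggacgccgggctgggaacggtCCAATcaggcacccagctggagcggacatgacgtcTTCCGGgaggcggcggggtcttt
ZNF267: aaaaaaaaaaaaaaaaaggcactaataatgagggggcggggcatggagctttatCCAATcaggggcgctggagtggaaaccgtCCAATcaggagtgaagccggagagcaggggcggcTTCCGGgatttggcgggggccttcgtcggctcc
ZNF678: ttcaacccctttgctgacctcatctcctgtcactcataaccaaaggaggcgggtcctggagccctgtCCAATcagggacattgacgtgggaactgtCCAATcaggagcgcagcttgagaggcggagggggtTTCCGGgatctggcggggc
ZNF681: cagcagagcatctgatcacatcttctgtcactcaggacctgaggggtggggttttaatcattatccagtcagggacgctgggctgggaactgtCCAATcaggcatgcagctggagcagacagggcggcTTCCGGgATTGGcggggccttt

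The ETS core was present in 4 of 4 promoters, in each as TTCCGG and with its first base 23 (ZNF138), 33 (ZNF267), 19 (ZNF678) and 22 (ZNF681) bases before the start. Among promoters of the same length, from 250 bases before to 50 after the start, it was found in 45% of 515 promoters of other ZNF genes and in 17.2% of all 35116. CCAAT was present in 4 of 4, in 44.3% of the other ZNF promoters and in 34.6% of all. Its first base lay 87 and 58 bases before the start in ZNF138, 96 and 67 in ZNF267 and 83 and 54 in ZNF678, while ZNF681 had it at 57 and, reversed, at 15. A search for words of 8 or more letters common to all 4 promoters gave a pair, whose presence in the 4 genes is therefore no finding. GTCCAATCAGG, which overlaps the CCAAT word, was in 7.18% of the other ZNF promoters and in 0.196% of all, and TTCCGGGA, which overlaps the ETS core, in 7.57% and 1.8%. A match describes these letters and does not show that a factor binds there.

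RNA depth ran from 13518177 to 48996691 counts per library, and 3 counts, the floor used for an undetected gene, corresponded to 0.0612 to 0.222 CPM (counting error only). ETS1 had 0, 3 and 0 counts with ETS1 siRNA, against 0, 1 and 0 in the controls of that experiment, so a loss of its transcript could not be measured. The exons of ZNF783 overlap another annotated gene on the same strand, which may affect its counts. ZNF783 stood at 28.6, 27.3 and 27.9 CPM with ZNF783 siRNA, against 33.8, 34.8 and 35.6 CPM in the controls. Its level in the ETS1 siRNA libraries was 12.5, 18.7 and 18.5 CPM, against 20.95, 21.6 and 22.3 CPM in the controls of that experiment, so the siRNA libraries lay below their controls in both experiments. ETS1 siRNA replicate 1 stood apart from its group, with a chi-square per degree of freedom of 35.6 and 34.3 against replicates 2 and 3, while all other pairs within a group lay between 1.32 and 2.70. Of the luminal prostate markers, KRT8 ran from 402.5 to 656 CPM over the 12 libraries, and KLK3 from 9.19 to 18.2 CPM. The 9 luminal markers summed to 3304 to 3317 CPM with ETS1 siRNA, against 3430 to 3457 CPM in its controls, and to 3086 to 3118 CPM with ZNF783 siRNA, against 3304 to 3349 CPM in its controls, so they were lower with both siRNAs without overlap. The 4 leukocyte markers summed to 0.147 to 0.607 CPM over the 12 libraries, with CD3E at 0 counts in all 12 and PTPRC at 0.0737 to 0.463 CPM. Of the 4 fibroblast markers COL1A1 (12.7 to 28.0 CPM) and LUM (12.97 to 55.9 CPM) were present. COL1A2 (0 to 0.234 CPM) and DCN (0.221 to 1.495 CPM) were low, so these markers do not go together. The summed fibroblast markers were 58.95 to 70.2 CPM with ETS1 siRNA, against 59.5 to 61.9 CPM in its controls, and 36.03 to 39.6 CPM with ZNF783 siRNA, against 42.5 to 46.2 CPM in its controls. The part of these marker levels in the results below was not tested, and in bulk RNA a change in the number of cells of a type and in RNA per cell cannot be told apart.

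All 4 genes were higher in every ETS1 siRNA library than in every control of that experiment. ZNF138 measured 68.4, 40.4 and 40.4 CPM in ETS1 siRNA replicates 1 to 3, against 24.8, 26.7 and 25.35 CPM in the controls. ZNF678, the most abundant of the 4 in CPM, measured 96.6, 72.9 and 74.2 CPM with ETS1 siRNA, against 41.9, 46.0 and 43.7 CPM in the controls. In both genes replicate 1 was the highest library and replicates 2 and 3 lay close together. ZNF681 measured 82.9, 52.5 and 52.6 CPM with ETS1 siRNA, against 30.5, 35.95 and 32.2 CPM in the controls. ZNF267, the least abundant, measured 31.3, 20.3 and 21.2 CPM with ETS1 siRNA, against 12.8, 13.3 and 12.9 CPM in the controls. The groups did not overlap for any of the 4, and replicate 1 was again the highest for both.

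**Figure D1:**
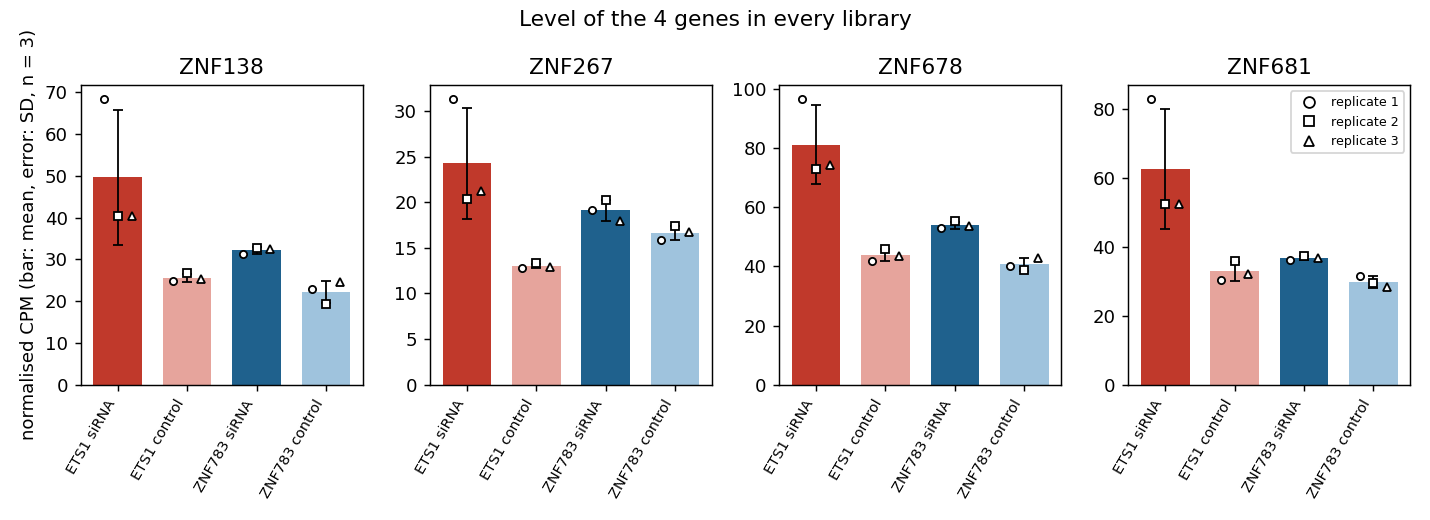
TMM-scaled CPM of the 4 genes in every library (points, by replicate) with the group mean (bar) and SD (error bar, n = 3), on a separate axis for each gene. ETS1 siRNA replicate 1 is the highest point of each panel, and the ETS1 siRNA libraries lie above all ETS1 controls, as the ZNF783 siRNA libraries do above all ZNF783 controls.

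Replicate 1, which the choice of the genes had left out, stood above the same 3 controls as well, and further. Those controls took part in the choice, so this is not an independent check. It stood at 2.67 times the control mean for ZNF138, 2.52 times for ZNF681, 2.40 times for ZNF267 and 2.20 times for ZNF678. The mean of replicates 2 and 3 was 1.58, 1.60, 1.60 and 1.68 times the control mean for ZNF138, ZNF681, ZNF267 and ZNF678. ZNF678 was thus the highest of the 4 ratios in replicates 2 and 3 and the lowest in replicate 1. Replicate 1 is 1 library that stands apart over all genes, which allows no test.

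Over all 6 libraries the mean level of ZNF138 was 49.7 ± 16.15 CPM with ETS1 siRNA and 25.6 ± 0.961 CPM in the controls (SD, n = 3 each), a log2 fold change of 0.95 (SE 0.206). ZNF681 averaged 62.6 ± 17.5 CPM with ETS1 siRNA and 32.9 ± 2.81 CPM in the controls, a log2 fold change of 0.93 (SE 0.185). ZNF267 averaged 24.3 ± 6.10 CPM with ETS1 siRNA and 13.02 ± 0.253 CPM in the controls, a log2 fold change of 0.89 (SE 0.166). The SDs with ETS1 siRNA are set by replicate 1, since replicates 2 and 3 of these genes differed by less than 1 CPM. ZNF678 averaged 81.25 ± 13.3 CPM with ETS1 siRNA and 43.8 ± 2.05 CPM in the controls, a log2 fold change of 0.89 (SE 0.116). Without replicate 1 the log2 fold changes were 0.65 (SE 0.046) for ZNF138, 0.67 (SE 0.047) for ZNF681, 0.67 (SE 0.061) for ZNF267 and 0.74 (SE 0.039) for ZNF678. With all 6 libraries 0 of the 4 genes were called at an adjusted p below 0.05, beside 0.0256% of all genes called higher and 0.0205% called lower (5 and 4 of 19542, with 3535 at an unadjusted p below 0.05 in either direction by edgeR and 603 called by DESeq2). Without replicate 1, the contrast that chose them, 4 of 4 were called, beside 9.96% of all genes called higher and 13% called lower (2016 and 2633 of 20237, or 2819 and 1863 when scaled by library size alone). Nothing is read from these member counts.

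Among the 315 ZNF genes at this level or above, ZNF678 was first by log2 fold change without replicate 1, followed by ZNF681, ZNF267 and ZNF138. The next below the line were ZNF257 and ZNF680 (0.62 each), ZNF273 (0.59) and ZNF117 (0.58), so the step from the last member at 0.65 was small. With replicate 1 included, ZNF257 had a larger log2 fold change (0.97) than any member (0.89 to 0.95). ZNF680 (0.82), ZNF273 (0.77) and ZNF117 (0.88) stayed below the members there. Of all 448 ZNF genes tested, ZNF707 (0.71, at a mean of 1.39 CPM) and ZNF785 (0.68, at 0.476 CPM) stood between the members and were left out for their low level.

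The values of the ZNF783 experiment were not used to choose the genes, although earlier results of these data were known at the choice. In that experiment all 4 rose. ZNF138 measured 31.3, 32.8 and 32.5 CPM with ZNF783 siRNA, against 22.95, 19.3 and 24.5 CPM in its controls, and showed the largest change of the 4 (log2 fold change 0.52, SE 0.066, adjusted p = 5.18e-08, edgeR). ZNF678 measured 52.95, 55.4 and 53.6 CPM with ZNF783 siRNA, against 40.3, 38.9 and 42.9 CPM in the controls (0.40, SE 0.047, adjusted p = 7.88e-09, edgeR). Both were higher in 3 of 3 libraries than in any control. ZNF681 measured 36.2, 37.3 and 36.8 CPM with ZNF783 siRNA, against 31.6, 29.6 and 28.3 CPM in the controls (0.30, SE 0.055, adjusted p = 3.49e-05, edgeR). ZNF267 measured 19.15, 20.3 and 17.98 CPM with ZNF783 siRNA, against 15.9, 17.4 and 16.7 CPM in the controls (0.20, SE 0.074, adjusted p = 0.0348, edgeR). These groups did not overlap either, although the gap for ZNF267, from the lowest siRNA library to the highest control, was below 1 CPM. That made 4 of 4 called higher, beside 11.3% of all genes called higher in this experiment (1993 of 17630) and 25.1% called in either direction. Of the other ZNF genes tested, 25.6% were called higher. In a fit of all 12 libraries ZNF138 (adjusted p = 0.163), ZNF681 (adjusted p = 0.379) and ZNF267 (adjusted p = 0.546, edgeR) did not pass, and ZNF678 did (adjusted p = 0.0403).

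**Figure D2:**
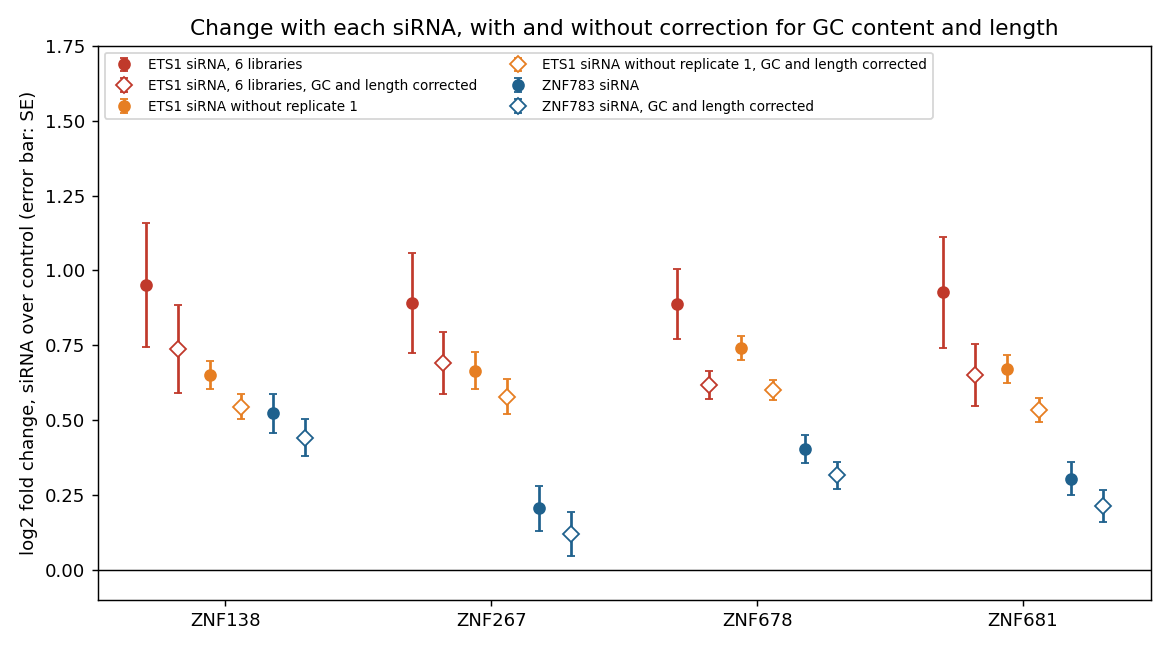
Log2 fold change of each gene with each siRNA over its own controls (points, with SE as error bars), before (filled) and after (open) correction for GC content and length. All points are above 0, and with ZNF783 siRNA they run from 0.52 for ZNF138 to 0.20 for ZNF267 before correction.

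ZNF138 had the largest log2 fold change of the 4 over all 6 ETS1 libraries (0.95) and with ZNF783 siRNA (0.52), and the smallest without ETS1 siRNA replicate 1 (0.65). The values of the 4 genes with ETS1 siRNA lay close together in both fits, from 0.89 to 0.95 and from 0.65 to 0.74. Since the genes were chosen for their rise with ETS1 siRNA, the difference between the siRNAs was not tested.

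All 4 genes are poor in GC, with 36.7% (ZNF138), 38% (ZNF267), 34.0% (ZNF678) and 33.9% (ZNF681) in the longest transcript, and GC moved with the fold changes of all genes. The median log2 fold change over all 6 ETS1 libraries was 0.22 for genes below 36% GC and -0.20 for genes at 60% and over. Without ETS1 siRNA replicate 1 these medians were 0.13 and -0.12, and with ZNF783 siRNA they were 0.08 and -0.13. The 4 genes lay above the median of their own GC range in both experiments. With ETS1 siRNA this follows from how the genes were chosen, so nothing is read from it there. After each library was corrected for smooth trends with GC content and length, the log2 fold changes with ETS1 siRNA without replicate 1 were 0.54 (ZNF138), 0.58 (ZNF267), 0.60 (ZNF678) and 0.53 (ZNF681). With all 6 ETS1 libraries they were 0.74, 0.69, 0.62 and 0.65 for the same genes, with 1 of the 4 called beside 0.0632% of all genes called higher. The libraries that chose the genes are among these 6, so nothing is read from that count. With ZNF783 siRNA the corrected values were 0.44 for ZNF138 (adjusted p = 3.77e-07), 0.32 for ZNF678 (adjusted p = 3.64e-07) and 0.21 for ZNF681 (adjusted p = 0.00284, edgeR). That of ZNF267 was 0.12 (adjusted p = 0.275, edgeR), so its call was lost, and 3 of 4 were called beside 8.42% of all genes called higher and 19.7% called in either direction after the correction.

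**Figure D3:**
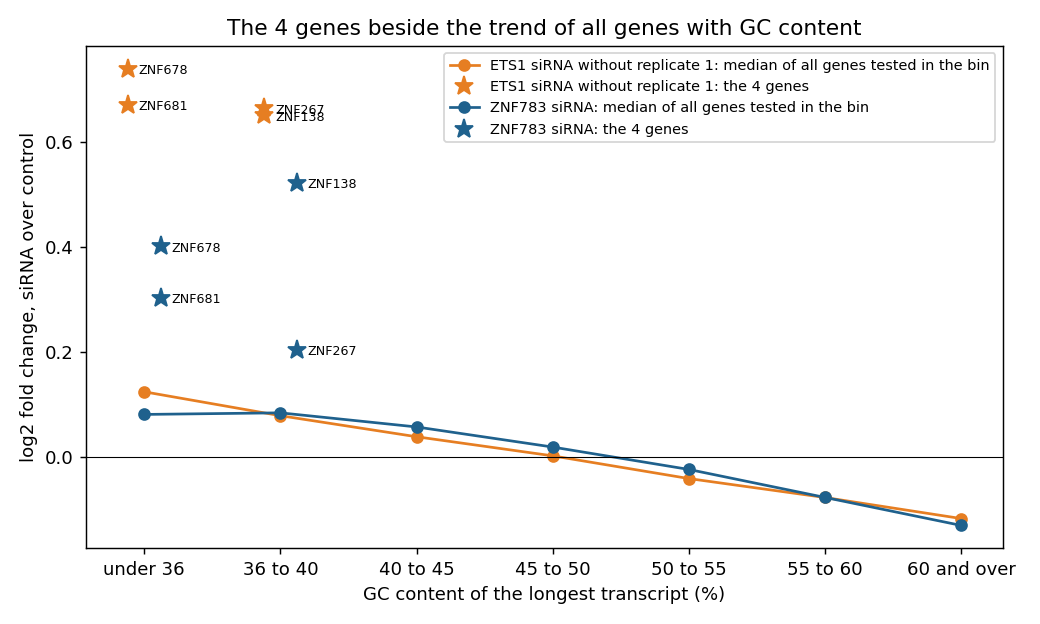
Median log2 fold change of all genes tested, in ranges of GC content of the longest transcript (lines), with the 4 genes placed in their own range (stars). The medians fall with GC content, from 0.13 below 36% to -0.12 at 60% and over with ETS1 siRNA without replicate 1, and the stars stand above the lines. For ETS1 siRNA the height of the stars is set by the choice of the genes.

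Levels of different genes were compared per length, as TPM (transcripts per 1e+06 transcripts) from GENCODE 29 exon lengths. ZNF138 was the highest in each group, at 79.0 ± 27.9 TPM with ETS1 siRNA and 38.6 ± 1.47 TPM in its controls, and at 50.3 ± 1.18 TPM with ZNF783 siRNA and 34.1 ± 4.34 TPM in its controls. ZNF267 was the lowest, at 17.3 ± 4.84 and 8.83 ± 0.190 TPM in the ETS1 siRNA and control groups, and at 13.5 ± 0.826 and 11.5 ± 0.491 TPM in the ZNF783 siRNA and control groups (SD, n = 3 each). ZNF681 and ZNF678 stood between them.
ZNF681 had 43.6 ± 13.4 TPM with ETS1 siRNA and 21.7 ± 1.85 TPM in its controls, and ZNF678 had 41.2 ± 7.87 and 21.1 ± 0.962 TPM, differences within the spread. With ZNF783 siRNA ZNF678 (26.5 to 27.7 TPM) lay above ZNF681 (24.9 to 25.6 TPM), without overlap. In the controls of that experiment they stood at 19.9 ± 1.19 TPM for ZNF678 and 20.04 ± 1.05 TPM for ZNF681, again within the spread.
The controls of ZNF267 did not overlap between the experiments, with 8.68 to 9.05 TPM in the ETS1 controls and 10.9 to 11.9 TPM in the ZNF783 controls. The experiments were counted in separate tables, so no test was run across them.

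**Figure D4:**
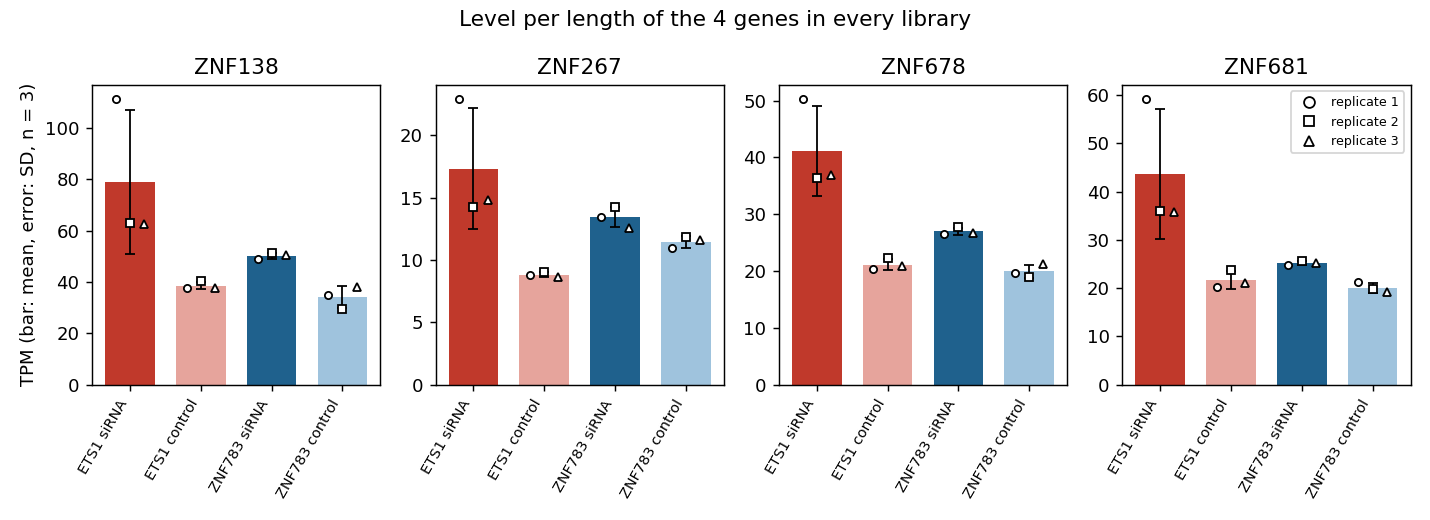
TPM of the 4 genes in every library (points, by replicate) with the group mean (bar) and SD (error bar, n = 3), on a separate axis for each gene. ZNF138 reaches 111 TPM in ETS1 siRNA replicate 1, while ZNF267 stays below 23 TPM in every library.

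The genes whose patterns were most like the members' were themselves zinc finger genes. Likeness was the root mean square difference in log2 CPM, centred on the controls of the same experiment, over 12 libraries and 9938 genes. The nearest to ZNF138 were ZNF117 (0.107), ZNF678 (0.116) and ZNF107 (0.119), and the nearest to ZNF267 were ZNF721 (0.0725), ZNF681 (0.0941) and ZNF680 (0.0963). The nearest to ZNF678 were ZNF680 (0.0721), ZNF273 (0.0947) and ZNF681 (0.101), and the nearest to ZNF681 were ZNF257 (0.0638), ZNF680 (0.0668) and ZNF267 (0.0941). ZNF680 was near 3 of the 4 members. Among the members, ZNF138 and ZNF267 were the least alike (0.199). All genes were measured in the same 12 libraries, whose trend with GC content they share. These libraries include those that chose the members, and the other members were among the genes compared. Likeness to other members and to ZNF genes with like rises is therefore partly set by the choice, and nothing is read from it.

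Many relatives and chromosomal neighbours of the 4 genes were also called higher. Relatives were the 5 genes with the most similar coding sequence for each member, 15 genes in all. They were, with the most similar first, ZNF107 (85.8% identity) for ZNF138, ZNF728 (75.6%) for ZNF267, ZNF43 (78.5%) for ZNF678 and ZNF492 (85.9%) for ZNF681, each followed by 4 others. In the ZNF783 experiment 7 of 12 tested relatives were called higher and 0 lower. That is 58.3% called higher, beside 11.3% higher and 13.8% lower over all genes. Their median log2 fold change was 0.26, against 0.0017 over all genes. The 7 were ZNF107 (0.39), ZNF92 (0.32), ZNF708 (0.34), ZNF728 (0.45), ZNF43 (0.26), ZNF257 (0.30) and ZNF429 (0.22), and those that did not pass were ZNF724 (0.21), ZNF66 (0.21), ZNF492 (0.11), ZNF729 (0.27) and ZNF723 (0.01). ZNF107, the most similar to ZNF138, averaged 102 ± 3.61 CPM with ZNF783 siRNA and 77.7 ± 2.34 CPM in its controls (SD, n = 3 each; adjusted p = 5.77e-11, edgeR). After correction for GC content and length 6 of 12 were called higher (50%, beside 8.42% of all genes). With ETS1 siRNA 0 of 12 were called over 6 libraries, although 11 had an unadjusted p below 0.05 and DESeq2 called 7 higher (beside 2.12% of all genes called higher by DESeq2), and the median was 0.62. Without replicate 1, 11 of 12 were called higher, beside 9.96% of all genes, and 9 after the correction, beside 8.83%. The median without replicate 1 was 0.38, against -0.0042 over all genes. In that fit ZNF257 had a log2 fold change of 0.62, ZNF723 of 0.57 and ZNF66 of 0.49, and ZNF729 (0.20) did not pass.

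Of 24 ZNF genes within 1000000 bases of a member, 20 were tested. This list shares 5 genes with the relatives, so the counts of the lists are not separate. Among the shared genes ZNF107, ZNF92 and ZNF728 enter both counts called higher with ZNF783 siRNA. In the ZNF783 experiment 12 were called higher and 1 lower (60% and 5%, beside 11.3% and 13.8% of all genes), with a median of 0.32. After correction for GC content and length the counts were 10 higher and 0 lower (50% and 0%, beside 8.42% and 11.3% of all genes). By locus, those of ZNF138 on chromosome 7, tested in 8 cases, were called higher in 8 of 8, both with ZNF783 siRNA (median 0.32) and with ETS1 siRNA without replicate 1 (median 0.38). Among them ZNF273 averaged 30.2 ± 1.502 CPM with ZNF783 siRNA and 22.5 ± 0.941 CPM in its controls (0.43, adjusted p = 5.03e-07, edgeR), and ZNF680 averaged 50.15 ± 1.54 CPM with ZNF783 siRNA and 39.9 ± 0.607 CPM in its controls (0.33, adjusted p = 5.96e-07, edgeR). With ETS1 siRNA without replicate 1 their log2 fold changes were 0.59 for ZNF273, 0.62 for ZNF680 and 0.58 for ZNF117. Of 9 tested neighbours of ZNF681 in the chromosome 19 cluster, 4 were called higher with ZNF783 siRNA (ZNF91, ZNF675, ZNF728 and ZNF730) and 8 with ETS1 siRNA without replicate 1. ZNF267 has 3 tested ZNF neighbours on chromosome 16, and none was called higher with either siRNA, while ZNF646 was called lower with both (-0.15 with ETS1 siRNA without replicate 1, adjusted p = 0.00899, and -0.14 with ZNF783 siRNA, adjusted p = 0.0114, edgeR). The single ZNF neighbour of ZNF678, ZNF847P, was not tested. With all 6 ETS1 libraries 0 of the 20 were called, with 16 at an unadjusted p below 0.05, 6 called higher by DESeq2 (beside 2.12% of all genes), and a median of 0.55. Without replicate 1 they came to 16 higher and 1 lower (80% and 5%, beside 9.96% and 13% of all genes). After the correction that fit gave 12 and 0 (60% and 0%, beside 8.83% and 11.1% of all genes).

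**Figure D5:**
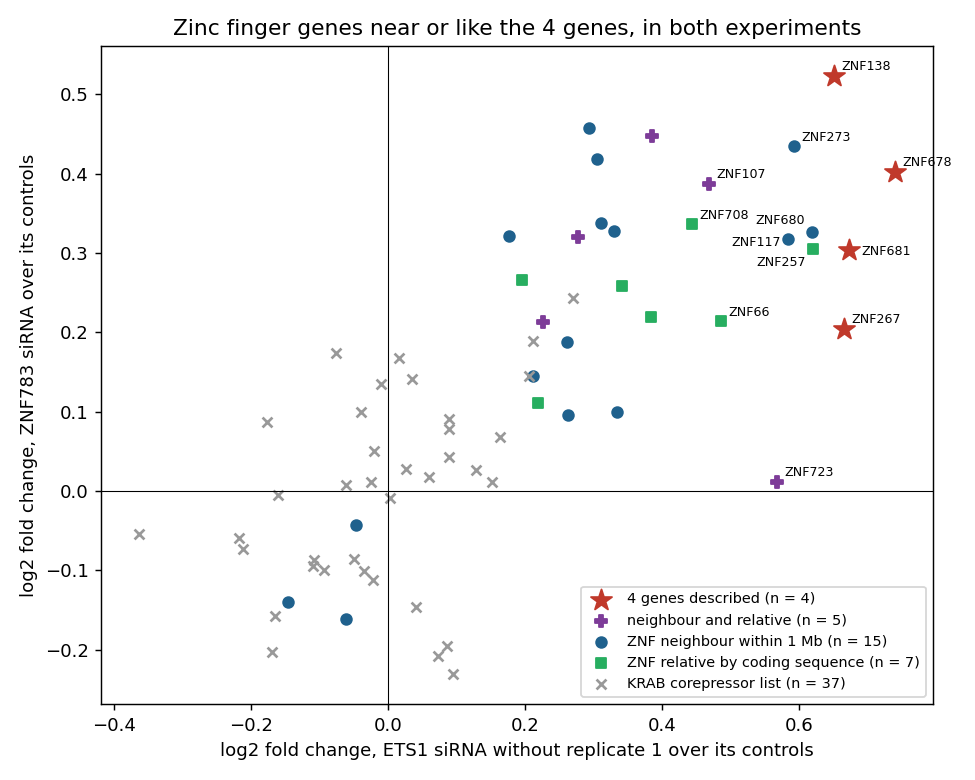
Log2 fold change with ZNF783 siRNA (vertical) against that with ETS1 siRNA without replicate 1 (horizontal), each over its own controls, for the 4 genes (stars), their tested ZNF neighbours and relatives, and the corepressor genes. The 4 genes stand at the right edge, between 0.65 and 0.74 on the horizontal axis, which is the contrast that chose them. Most neighbours and relatives lie in the upper right part, and the corepressors scatter about 0.

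The other ZNF genes were called in both directions, more of them higher than lower without replicate 1 and with ZNF783 siRNA. Of 434 other tested genes with a ZNF symbol, 111 were called higher with ZNF783 siRNA and 22 lower (25.6% and 5.07%, beside 11.3% and 13.8% of all genes), with a median of 0.11. Correction for GC content and length left 70 and 9 (16.1% and 2.07%, beside 8.42% and 11.3% of all genes). Without ETS1 siRNA replicate 1, 81 of 444 were called higher and 40 lower (18.2% and 9.01%, beside 9.96% and 13% of all genes), with a median of 0.03. With all 6 libraries 0 of 443 were called in either direction by edgeR, with 107 at an unadjusted p below 0.05. There DESeq2 called 27 higher and 3 lower (6.60% and 0.734%, beside 2.12% and 2.28% of all genes). The word GTCCAATCAGG was carried by the promoters of 61 other gene symbols, 37 of them among the other ZNF genes. Of the 61, 18 of 41 tested were called higher with ZNF783 siRNA and 1 lower (43.9% and 2.44%, beside 11.3% and 13.8% of all genes, median 0.16). The share called higher among the other ZNF genes was 25.6%. The 1 called lower was WARS1, a tryptophan tRNA synthetase (-0.23, adjusted p = 2.27e-07, edgeR). Without ETS1 siRNA replicate 1, 24 of 45 were called higher and 1 lower (53.3% and 2.22%, beside 9.96% and 13% of all genes, median 0.22). The share called higher among the other ZNF genes was 18.2% there. With all 6 libraries 0 of 44 were called, with 24 at an unadjusted p below 0.05. DESeq2 called 10 higher (26.3%, beside 2.12% of all genes). After the correction the counts were 11 higher and 2 lower with ZNF783 siRNA (27.5% and 5%, beside 8.42% and 11.3% of all genes). With ETS1 siRNA without replicate 1 they were 19 and 0 (43.2% and 0%, beside 8.83% and 11.1% of all genes). The list was made after the promoters of the 4 genes had been read, and 9 of its genes are also neighbours and 6 also relatives of the members. The word came from genes chosen by their rise with ETS1 siRNA. Its counts with ETS1 siRNA may therefore be partly set by the choice, and nothing is read from them.

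The corepressor machinery through which KRAB zinc finger proteins act was called in both directions. Of 37 tested genes of a list of 39, 8 were called higher and 8 lower with ZNF783 siRNA (21.6% each, beside 11.3% and 13.8% of all genes; median 0.01). Without ETS1 siRNA replicate 1 they came to 9 higher and 10 lower (24.3% and 27.03%, beside 9.96% and 13% of all genes, median -0.01). Scaled by library size alone, that fit gave 12 and 7 (32.4% and 18.9%, beside 13.9% and 9.21% of all genes). Corrected for GC content and length, it gave 5 and 10 (13.5% and 27.03%, beside 8.83% and 11.1% of all genes). With all 6 ETS1 libraries 0 were called by edgeR, with 12 at an unadjusted p below 0.05 and 1 called lower by DESeq2. TRIM28, the corepressor bound by the KRAB domain, averaged 519.5 ± 80.8 CPM with ETS1 siRNA and 654 ± 13.5 CPM in its controls (SD, n = 3 each; log2 fold change -0.33, SE 0.110, adjusted p = 0.214, edgeR). Without replicate 1 it was lower (-0.22, adjusted p = 1e-08, edgeR), as were the heterochromatin protein gene CBX1 (-0.36, adjusted p = 8.05e-15) and the histone methyltransferase gene SETDB1 (-0.18, adjusted p = 0.000127, edgeR). ATF7IP, a partner of SETDB1, was higher (0.21, adjusted p = 3.16e-07, edgeR). The fall of SETDB1 was not seen in replicate 1, at 71.3 CPM against 70.9 to 72.1 CPM in the controls. Over all 6 libraries SETDB1 averaged 66.0 ± 4.57 CPM with ETS1 siRNA and 71.4 ± 0.634 CPM in the controls. With ZNF783 siRNA TRIM28 averaged 581 ± 6.36 CPM, against 606 ± 14.1 CPM in its controls, and did not pass (-0.06, adjusted p = 0.0731, edgeR), nor did CBX1 (-0.05, adjusted p = 0.191) or SETDB1 (0.09, adjusted p = 0.132, edgeR). The DNA methyltransferase gene DNMT1 (-0.23, adjusted p = 4.84e-09), its partner UHRF1 (-0.21, adjusted p = 0.000114) and the NuRD subunit gene MBD3 (-0.20, adjusted p = 1.22e-06, edgeR) fell in that experiment, and ATF7IP rose (0.14, adjusted p = 0.000393, edgeR). MTA2, another NuRD subunit gene, fell in both (-0.16 with ETS1 siRNA without replicate 1, adjusted p = 1.94e-05, and -0.16 with ZNF783 siRNA, adjusted p = 6.56e-05, edgeR).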

How the data were processed

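Total RNA of 12 libraries of 22Rv1 cells was sequenced from a strand-marking kit, per the labels' protocols. For each experiment the authors deposited 1 table of read counts by gene, not normalized. Per the file headers, paired reads were counted over exons by featureCounts 2.0.1, using Ensembl release 107 (GRCh38) and no strand option, and the submitters' processing notes name hg38. The aligner's version and the read filters are not given in the sources used here. Groups and replicate numbers came from the labels.

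Each siRNA was compared with its own controls by edgeR 4.0.16 in R 4.3.3 (default expression filter, TMM scaling, robust quasi-likelihood test, Benjamini-Hochberg adjustment over all genes tested, called at an adjusted p below 0.05). CPM are TMM-scaled. The design had foreseen deposited gene lengths for TPM and protein sequences for relatives. GENCODE 29 exon lengths and a global alignment of 496 coding sequences were used in their place. The GC and length correction used natural splines with 5 degrees of freedom per library. Coordinates are 1-based. Overlap with other genes was checked for the 4 genes, ETS1 and ZNF783, and shared sequence for the 4 genes only. ZNF783 shares exon bases with 1 other annotated gene on the same strand, so its counts may be affected by that gene. Values of the other genes named may hold reads of overlapping or similar genes. Promoters are from RefSeq (GRCh38.p14), where 4 of 4 genes matched. The scripts were tested on simulated counts. Not every marker checked is reported here.

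The members and lists were chosen with earlier results of these data known. Besides the members, the genes named are the targeted genes, TRIM28 and SETDB1, up to 6 per list by adjusted p in each experiment, all relatives, the 3 nearest patterns per member among genes averaging 5 CPM or more, and genes next to the line that chose the members. Alternatives were other scalings (DESeq2 size factors, upper quartile, library size), other expression filters, the replicate block, a fit of all 12 libraries, the GC and length correction, the Wald test of DESeq2 1.42.0 and leaving out each library. Added after seeing the data were combinations of leaving out ETS1 siRNA replicate 1 with the correction, library size alone or DESeq2.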

Additional observations from a re-analysis of the deposited data

How the results depend on the processing

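All 4 genes kept a positive log2 fold change under the 19 alternatives run for ETS1 siRNA and the 16 for ZNF783 siRNA. Every ETS1 alternative holds libraries that chose the genes, so the sign there was largely set by the choice and nothing is read from it. With ETS1 siRNA, leaving out 1 library gave 0.65 to 1.08 for ZNF138, 0.67 to 1.01 for ZNF267, 0.74 to 0.96 for ZNF678 and 0.67 to 1.04 for ZNF681, the lowest without ETS1 siRNA replicate 1. The values that moved by more than the replicate spread were those with the GC and length correction, at 0.62 for ZNF678, with the replicate block added at 0.62 for ZNF678 and 0.64 for ZNF681, and without replicate 1 at 0.54 for ZNF138, 0.58 for ZNF267, 0.60 for ZNF678 and 0.53 for ZNF681.

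With ZNF783 siRNA, ZNF678 stayed called in all 16 alternatives, and ZNF138 and ZNF681 in 15. The exception was the fit of all 12 libraries, at 0.52 for ZNF138 (adjusted p = 0.163) and 0.29 for ZNF681 (adjusted p = 0.379, edgeR). ZNF267 was called in 7 of 16. Its log2 fold change was 0.21 with no filter (adjusted p = 0.0525), 0.19 with all 12 libraries (adjusted p = 0.546), 0.12 after the GC and length correction (adjusted p = 0.275), 0.11 with the replicate block as well (adjusted p = 0.291, edgeR) and 0.20 with DESeq2 (adjusted p = 0.191). Leaving out 1 library gave 0.17 to 0.24 for ZNF267, with the call lost without siRNA replicate 1 (adjusted p = 0.0779) or 2 (adjusted p = 0.154) and control replicate 1 (adjusted p = 0.133) or 3 (adjusted p = 0.0706, edgeR). The ranges were 0.44 to 0.60 for ZNF138, 0.37 to 0.45 for ZNF678 and 0.26 to 0.35 for ZNF681. The cause was not tested.

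Genes called with ETS1 siRNA (higher and lower) numbered 5 and 4 over 6 libraries, 9 and 4 by library size alone, 133 and 120 with no filter, 975 and 900 with all 12 libraries, 12 and 14 with the correction, 290 and 313 with DESeq2, and 0 to 2016 and 0 to 2633 when 1 library was left out. Without replicate 1 they numbered 1732 and 2181 with the correction, 2819 and 1863 by library size alone, and 1217 and 1595 with DESeq2. With ZNF783 siRNA they numbered 297 and 527 with all 12 libraries, 1110 and 1433 with DESeq2, and 1632 to 1822 and 1853 to 2305 when 1 library was left out.

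Of the list counts with ETS1 siRNA, those that moved were for the corepressors (5 higher and 10 lower without replicate 1 with the correction, 1 lower with DESeq2, 0 to 9 and 0 to 10 when 1 library was left out), the neighbours (12, 6 and 0 to 16 higher, and 0 to 1 lower), the relatives (9, 7 and 0 to 11 higher), the other ZNF genes (62 higher and 28 lower, 27 and 3, and 0 to 81 and 0 to 40, with 1 higher under the correction alone) and the carriers of the promoter word (19, 10 and 0 to 24 higher, 0 to 1 lower). With ZNF783 siRNA those that moved were for the corepressors (4 higher with the correction), the neighbours (0 lower with the correction or DESeq2, 0 to 1 when 1 library was left out), the other ZNF genes (70 and 9 with the correction, 55 and 9 with DESeq2, 11 to 22 lower when 1 library was left out) and the carriers (11 higher with the correction or DESeq2, 2 lower with the correction).

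Same-numbered libraries did not pair: the correlations of their deviations were 0.10, -0.20 and 0.24 in the ETS1 experiment and -0.05, -0.04 and -0.04 in the ZNF783 experiment. With the replicate block 0 genes were called higher and 0 lower with ETS1 siRNA by edgeR (3139 at an unadjusted p below 0.05), and 1997 and 2479 with ZNF783 siRNA, where the calls of the 4 genes did not change.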
